A study of Mus musculus with 24 samples.

Results

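Of 150646 ATAC-seq peaks in mouse small intestinal epithelium, 5429 lay in an annotated exon and more than 1000 bp from the nearest transcription start site (TSS). They were chosen from the deposited annotation table, by an annotation that begins with "exon" and a distance to the TSS over 1000 bp in either direction. The same text gives the exon number and the number of exons of the transcript. By it, 746 peaks lay in a first exon, 1786 in an inner exon, 2484 in a last exon and 413 in the only exon of a single-exon transcript. These peaks fell in exons of 4246 genes, of which 3345 held 1 peak, 901 held 2 or more, and the highest number was 7. Exons of protein-coding genes held 4711 peaks, or 86.8%.

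The libraries came from C57BL/6JRj mice, young or aged, with 3 libraries of each age, and no genetic change or treatment is named for any of them. Cells had been sorted as EpCam-positive and CD45-negative, which selects epithelial cells and removes most leukocytes. The design text of the series gives 2 to 3 months for young and 20 to 22 months for aged mice, in sentences about other assays. ATAC-seq uses the transposase Tn5, which cuts open chromatin and leaves sequencing adapters there, so that counts in a peak measure how accessible it was. Nothing in the labels ties each library to a mouse of its own, so that p-values cover the spread between these libraries, which may be technical.

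Most open chromatin lies at promoters and at enhancers, and most enhancers lie between genes or in introns. An exon can also be open: a first exon lies beside its own promoter, an inner exon can hold an enhancer or an alternative promoter, and a last exon holds most of the 3′ untranslated region, where transcription ends. A gene often has several transcripts with different starts, so a peak may be far from 1 annotated TSS and close to another.

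Young 4 was the shallowest library, with 6149680 counts over all peaks, and aged 2 the deepest, with 23935291. The median count of an exon peak was 13 in young 4 and 31 to 47 in the other libraries, and between 6 and 104 of the 5429 peaks had no count in a given library. The 3-count level stood at 0.125 to 0.478 CPM, the count of a peak scaled to the library's total as edgeR's cpm function gives it, and covers counting error only. At promoters, 8 of 9 epithelial markers (among them Epcam, Cdh1 and Vil1) had a peak, with 316 to 384 CPM summed per library. None of 9 leukocyte markers, Ptprc and Cd3e included, had a promoter peak, and 4 of 7 stromal markers had one, summing to 18.5 to 21.2 CPM.

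The label "away from the TSS" held for most of the peaks and failed for many of those in first exons. RefSeq TSS positions on the same build, from a promoter table that has none for chromosome 18, could be compared for 5296 of the peaks. Off that chromosome the table held 2817 of 3954 exon genes by symbol (71.2%), so the shares near a RefSeq TSS are minimum values. Of the 5296, 553 (10.4%) had a RefSeq TSS within 1000 bp of their centre. That share was 54.0% in first exons (394 of 729), 3.91% in inner exons (68 of 1738), 2.77% in last exons (67 of 2422) and 5.90% in single exons (24 of 407). In 240 first-exon peaks the RefSeq start lay inside the peak. Among first-exon peaks whose nearest TSS in the deposited table belonged to the exon's own gene, 253 of 438 (57.8%) lay upstream of that TSS, and 159 of the 253 had a RefSeq TSS within 1000 bp. A first exon upstream of the nearest TSS of its gene belongs to a transcript with another start.

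**Figure D1:**
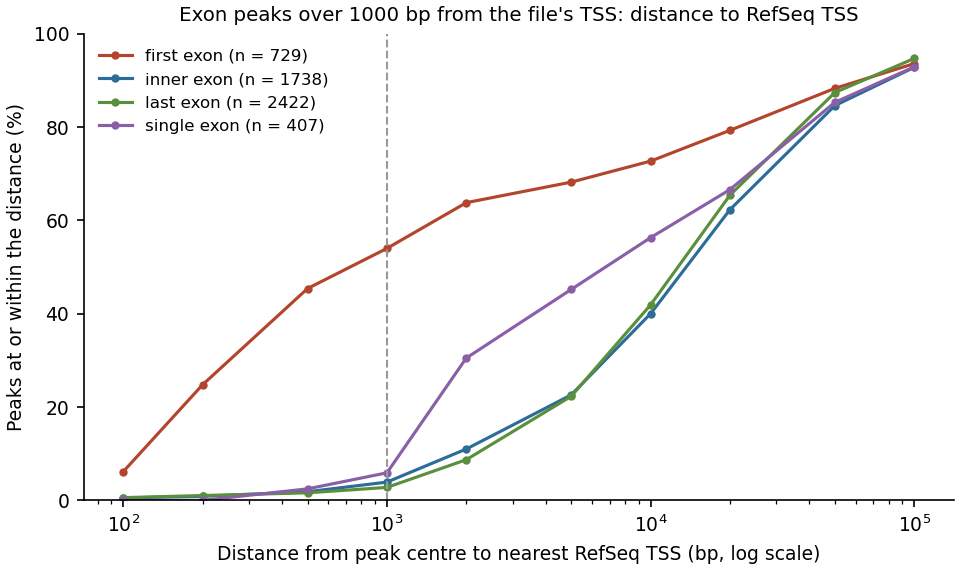
Cumulative share of exon peaks (y axis, percent) against the distance from the peak centre to the nearest RefSeq TSS (x axis, bp, log scale), by exon class, with a dashed line at 1000 bp. At that distance the first-exon line has reached 54.0%, and the inner, last and single exon lines 3.91%, 2.77% and 5.90%.

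The 170 bases around the RefSeq start (150 before it and 20 from it on) are shown for 4 such peaks, because here the start lies inside the peak. The sequences are from RefSeq (GRCm38.p6), read on the gene's strand, and capitals mark the GC box, a site of Sp/KLF factors, which reads GGGCGG on one strand and appears as its reverse complement when it lies on the other. Aco1, which encodes the cytosolic aconitase that doubles as an iron-responsive RNA-binding protein, starts on the plus strand and the window is chr4:40143115-40143284. Gcsh, the H protein of the mitochondrial glycine cleavage system, starts on the minus strand (chr8:116993479-116993648). Rap2b, a Ras-related small GTPase with a single exon, is on the plus strand (chr3:61364357-61364526). Frem2, a basement membrane protein of epithelia, is on the minus strand (chr3:53657336-53657505) and is the peak of this kind with the largest fall in aged libraries.

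Aco1: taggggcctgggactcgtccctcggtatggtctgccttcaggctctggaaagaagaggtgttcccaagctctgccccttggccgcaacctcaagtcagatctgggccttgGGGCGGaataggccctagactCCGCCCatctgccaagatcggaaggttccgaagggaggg
Gcsh: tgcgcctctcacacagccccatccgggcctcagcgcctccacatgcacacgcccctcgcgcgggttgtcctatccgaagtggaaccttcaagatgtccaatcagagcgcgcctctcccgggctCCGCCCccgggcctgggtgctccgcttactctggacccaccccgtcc
Rap2b: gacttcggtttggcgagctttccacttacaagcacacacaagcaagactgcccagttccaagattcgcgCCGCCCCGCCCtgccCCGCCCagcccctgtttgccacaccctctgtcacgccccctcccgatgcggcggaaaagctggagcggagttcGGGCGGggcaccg
Frem2: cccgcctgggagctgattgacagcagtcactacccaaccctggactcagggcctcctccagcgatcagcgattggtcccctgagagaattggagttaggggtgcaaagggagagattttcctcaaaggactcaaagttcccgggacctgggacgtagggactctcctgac

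The Aco1 window held 2 GC boxes, the Gcsh window 1, the Rap2b window 4 and the Frem2 window none. The deposited table put the Aco1 peak 20350 bp upstream of its nearest TSS, while its centre lay 104 bp from the RefSeq start. For Gcsh the distances were 2073 bp upstream and 64 bp, and for Frem2 10204 bp, from a processed pseudogene, and 231 bp. In all, 257 RefSeq starts lay inside first-exon peaks. Their windows of 300 bases (250 before the start and 50 from it on) had a median GC content of 63.0% and 22 CpG dinucleotides, against 52.7% and 7 over all 32851 windows of the table. GGGCGG was found on either strand in 70.0% of them and in 35.7% of all windows. The AP-1 motif TGANTCA was found in 3.11% of them and in 7.81% of all windows. For the motif bound by GATA factors, AGATAA, the shares were 5.45% and 11.2%. Part of the CTCF motif, AGGGGGC, was in 19.5% and 10.6%. Part of the HNF4 motif, CAAAGTC, was in 3.5% and 4.44%. These are matches of letters, and motifs can overlap: AGGGGGC ends in letters that begin the GC box, so those shares are not independent, and the GC box contains a CpG.

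The distance threshold cut through a continuous range. The 2 peaks just over it were in exon 4 of 4 of Hes7, a repressor of the segmentation clock, and exon 1 of 8 of Set, a histone chaperone, both at 1002 bp. Just within it were exon 1 of 2 of En2, a homeobox gene, at 998 bp, and exon 1 of 3 of Htr6, a serotonin receptor gene, at 997 bp. Their mean levels were 3.21 and 23.6 CPM in aged libraries for Hes7 and Set, and 7.24 and 1.15 CPM for En2 and Htr6. In young libraries they were 3.22 and 25.2 CPM for Hes7 and Set, and 7.54 and 1.10 CPM for En2 and Htr6. None of the 4 differed between the ages by the test used below.

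First-exon peaks were wider and more open than those in other exons. Their median width was 416 bp, against 196.5 bp in inner, 209 bp in last and 193 bp in single exons, and 223 bp over all peaks. Their median level was 5.31 CPM, against 1.70, 1.78 and 2.16 CPM, and 281 of the 746 (37.7%) exceeded 10 CPM, where 11.4% of inner-exon peaks did. By exon number the median fell from 5.31 CPM in exon 1 to 2.21 CPM in exon 2 and 1.92 CPM in exon 3, and was 1.48 CPM beyond exon 10. First-exon peaks that held a RefSeq start had a median of 20.8 CPM and 810 bp. Those without a start from the table had 2.69 CPM and 258 bp.

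Per kilobase of peak, so that width does not enter, the mean level of first-exon peaks was 20.6, 21.1 and 20.8 CPM per kb in the aged libraries 1, 2 and 4. In the young libraries of the same numbers it was 21.9, 21.0 and 20.1. Inner-exon peaks had 12.5, 12.9 and 13.8 in aged and 12.5, 12.7 and 13.2 in young. First exons were thus above inner exons in 6 of 6 libraries, by a log2 ratio of 0.70 ± 0.0803 (SD, n = 6), or 1.62-fold. The exact two-sided sign-flip test gave p = 0.031, the smallest it can give with 6 libraries, and 0.0521 after Benjamini-Hochberg adjustment over the 5 class comparisons, which is not under 0.05. Without the peaks near a RefSeq TSS the log2 ratio was 0.50 and held in every library.

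Single-exon transcripts lay 1.2-fold above inner exons in 6 of 6 libraries (log2 ratio 0.26 ± 0.0387, n = 6, exact sign-flip p = 0.031, adjusted 0.0521). Last exons could not be told apart from inner ones: the log2 ratio was 0.02 ± 0.029, above 0 in 5 of 6 libraries (n = 6, exact p = 0.125, adjusted 0.156). All exon peaks together were 1.09-fold above intron peaks over 1000 bp from the TSS (0.13 ± 0.0402, 6 of 6, n = 6, exact p = 0.031, adjusted 0.0521). These sets were not matched in distance: the median was 7843 bp for exon and 16486 bp for intron peaks. Against peaks annotated to a transcription termination site (TTS) the log2 ratio was -0.01 ± 0.0196, with 1 of 6 libraries above 0 (n = 6, exact p = 0.219).

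**Figure D2:**
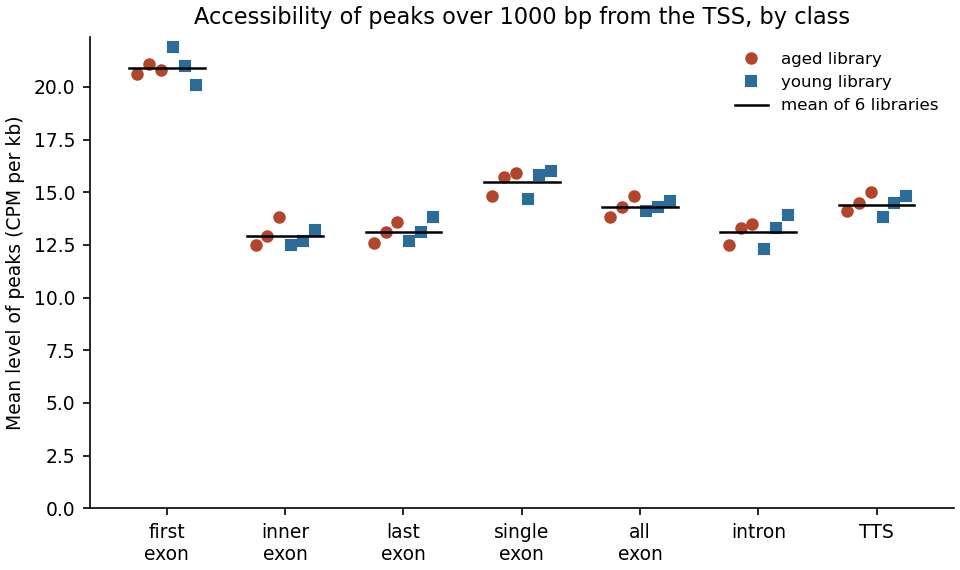
Mean level of peaks over 1000 bp from the TSS (y axis, CPM per kb of peak) by class (x axis), with a point per library (circles aged, squares young) and a line at the mean of 6 libraries. First exons lie between 20.1 and 21.9 in every library, and inner exons between 12.5 and 13.8.

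The peaks with the highest counts were of several kinds. Exon 10 of 10 of an Sfi1 transcript (chromosome 11, 3132025 to 3132710) had the highest mean of all 150646 peaks, 196 CPM. Sfi1 encodes a centrin-binding protein of the mitotic spindle. The peak stood at 207 ± 23.3 CPM in aged and 186 ± 24.6 CPM in young libraries (SD, n = 3), and their ranges overlapped. How reads that map to several places were counted is not given in the sources used here. The part of such reads in this level is unknown, so it may not measure accessibility alone. Aco1 exon 1 of 21 (chromosome 4, 40142781 to 40143957) had 121, 119 and 118 CPM in aged and 127, 110 and 116 in young. Gcsh exon 1 of 5 (chromosome 8, 116993051 to 116993817) had 102 ± 8.77 against 102 ± 8.52 CPM (SD, n = 3). Rap2b (chromosome 3, 61363635 to 61364826) had 64.2 ± 5.89 against 62.1 ± 4.96 CPM, and exon 2 of 6 of Angptl6, an angiopoietin-like gene, 77.1 ± 7.27 against 83.2 ± 9.85 CPM. These 4 peaks did not differ between the ages beyond the spread of their libraries.

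Individual exon peaks differed between the ages in both directions, and exon peaks as a whole took much the same share of counts. Exon peaks took 3.057 ± 0.0607% of all counts in aged and 3.056 ± 0.0235% in young libraries (SD, n = 3 each, exact permutation p = 1). First exons took 0.953% and 0.958%, inner exons 0.774% and 0.758%, last exons 1.129% and 1.138%, and single exons 0.202% in both. The exact permutation p of these 4 classes was 0.6 to 0.9, adjusted 1, in a design of 3 against 3 whose smallest p is 0.1.

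Of the 5429 peaks, 4622 passed the filter on low counts and 807 did not. Of the 4622, 139 (3.01%) passed a Benjamini-Hochberg adjusted p of 0.05 in edgeR's quasi-likelihood test, here taken as a call, where 1.6% of all 129588 tested peaks were. They split into 72 higher and 67 lower in aged libraries, against 1.07% higher and 0.528% lower over all peaks. When the replicate number was a block in the fit, the counts were 120 and 108, where 3.09% of all peaks were called. Without young 2 they were 46 and 40, where 0.916% of all peaks were called. In all 11 alternative fits 67 of the 139 were called, 37 higher and 30 lower. The median log2 fold change of the tested exon peaks was -0.0117, against -0.00384 over all tested peaks. Called peaks moved by a median of 1.35 (higher) and -1.55 (lower) on the log2 scale. The change exceeded 2-fold at 53 peaks that were higher and 56 that were lower, and 4-fold at 15 and 20. Called peaks of the whole set were much alike, with medians of 1.29 and -1.51. Of them, 973 of 1393 higher and 560 of 684 lower peaks exceeded 2-fold, and 254 and 204 exceeded 4-fold. The libraries are bulk samples, so a change in the share of cells of a type and a change of accessibility within cells cannot be told apart.

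The called share differed by position in the gene. In inner exons 63 of 1496 tested peaks (4.21%) were called, 35 higher and 28 lower, in last exons 57 of 2085 (2.73%), 32 higher and 25 lower. In first exons 13 of 690 (1.88%) were called, 2 higher and 11 lower, and in single exons 6 of 351 (1.71%), 3 in each direction. Intron peaks over 1000 bp from the TSS had 1.33%, TTS peaks beyond that threshold 2.11% and exon peaks within 1000 bp of the TSS 1.63%. Inner exons had the highest share of the 4 classes in the main and all 11 alternative fits. Since the level of a peak affects how easily a change is called, peaks were also compared at like levels. Between 1 and 2 CPM 4.79% of inner-exon and 1.96% of all peaks were called, between 2 and 5 CPM 3.89% and 1.99%, between 5 and 10 CPM 3.55% and 1.87%, and above 10 CPM 3.45% and 0.707%. Inner exons did not lead the 4 classes in every band. Between 1 and 2 CPM single exons had 5.48% and first exons 4.81%, and between 5 and 10 CPM last exons had 5.48%. The differences between classes are descriptions, with no test.

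The 3 aged and 3 young CPM did not overlap at 17.2% of tested exon peaks, against 13.9% of all tested peaks. The aged libraries were the higher ones at 405 exon peaks (8.76%, against 7.32% over all peaks) and the lower ones at 391 (8.46%, against 6.54%). That share was 21.1% in inner, 18.5% in single, 15.7% in last and 12.9% in first exons. Among first-exon peaks, those near a RefSeq TSS had 3 calls in 376, all lower, and those without had 10 in 297, 2 higher and 8 lower. The order was reversed in inner exons (6.56% near a RefSeq TSS, 4.15% without) and last exons (8.62% and 2.62%). The shares near a RefSeq TSS there rest on 4 calls in 61 and 5 in 58 peaks. Single exons had 0 calls in 24 peaks near one and 5 in 321 without.

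**Figure D3:**
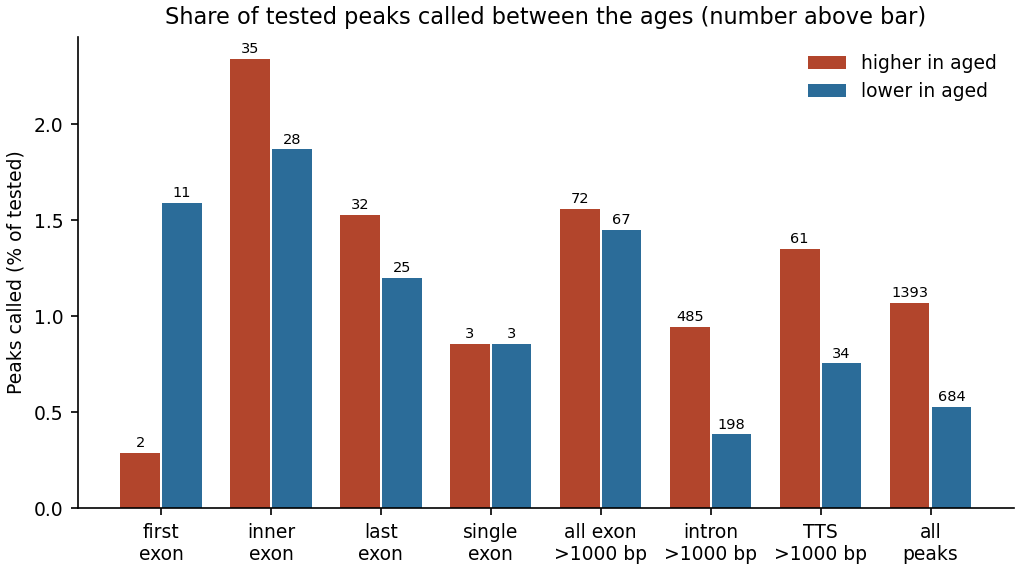
Share of tested peaks called between the ages (y axis, percent) by class (x axis), with red bars for peaks higher and blue bars for peaks lower in aged libraries and the number called above each bar. Inner exons have the tallest bars in both directions (35 higher, 28 lower), and first exons have 2 higher against 11 lower.

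Peaks that were more open in aged libraries lay mostly in inner and last exons. Plch1, which encodes a phospholipase C of the eta class, had a peak in exon 22 of 22 (chromosome 3, 63697551 to 63697925), 72474 bp from the nearest TSS in the deposited table. It stood at 9.18, 10.1 and 9.94 CPM in aged and 3.20, 3.22 and 2.39 CPM in young libraries. Its log2 fold change was 1.67 (SE 0.18, edgeR adjusted p = 1.26e-07). Ephb4, a receptor tyrosine kinase for ephrin-B ligands, had a peak in exon 3 of 17 (chromosome 5, 137354214 to 137354437) at 7.70, 6.48 and 4.15 CPM in aged and 1.24, 1.34 and 1.43 CPM in young, a log2 fold change of 2.22 (SE 0.25, edgeR adjusted p = 3.49e-07). In both, every aged library lay above every young one, which was a condition of their choice.

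Galnt4, which encodes an enzyme that starts the O-glycosylation of mucins, held 2 narrow peaks in its single exon, 74 and 87 bp wide (chromosome 10, starts 99109455 and 99109146). The first had 3.57, 2.80 and 2.04 CPM in aged and 0.229, 0.198 and 0.159 CPM in young libraries, a rise of 13.1-fold (log2 3.72, SE 0.39, edgeR adjusted p = 1.30e-07). Its young values rest on 5, 4 and 1 counts, so the fitted size is uncertain. The second, on the log2 scale, had 3.07 (SE 0.44), with 2, 5 and 3 counts in young libraries. Both belong to 1 exon and are not independent. Ly6e, an interferon-inducible surface protein of the Ly6 family, rose 7.05-fold in exon 2 of 3 (chromosome 15, 74957998 to 74958144), from 0.275, 0.347 and 0.318 CPM in young to 2.10, 2.21 and 2.39 CPM in aged (log2 2.82, SE 0.36, edgeR adjusted p = 4.70e-06). The young values rest on 6, 7 and 2 counts, so the size of this rise is uncertain too.

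Exon 9 of 9 of the synaptotagmin gene Syt14 (chromosome 1, 192897179 to 192897584) had 6.23 ± 0.0391 against 1.97 ± 0.229 CPM (SD, n = 3), a log2 fold change of 1.65. Exon 2 of 5 of Sbspon, a gene for a thrombospondin-domain protein, had 6.04 ± 1.35 against 1.67 ± 0.533 CPM, or 1.78. The 2 first-exon peaks that rose were in Myo10, an unconventional myosin of filopodia, with 6.85 ± 0.961 against 2.39 ± 0.272 CPM (1.49), and in Fam83a, with 2.44 ± 0.487 against 0.67 ± 0.458 CPM (1.67). Without young 2 the log2 fold change of the Fam83a peak was 2.38. The Myo10 peak lay 39203 bp from the nearest start in the RefSeq table, which has no entry named Fam83a.

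The rises that follow were chosen after their values were seen and come from no list. Tom1l1, an endosomal adaptor that binds Src kinases, rose in exon 2 of 2 from 8.38 ± 2.00 to 17.2 ± 0.450 CPM (log2 1.11, SE 0.15, edgeR adjusted p = 7.67e-06). Vill, a villin-like actin-binding protein, rose in exon 16 of 20 from 8.44 ± 0.169 to 16.6 ± 2.72 CPM (log2 0.97). Best1, a calcium-activated chloride channel, rose in exon 9 of 12 from 6.03 ± 0.683 to 10.3 ± 0.757 CPM (0.73). Ifnlr1, the receptor chain for interferon lambda, had 2.77 ± 0.337 against 1.16 ± 0.192 CPM in exon 5 of 7 (1.19, adjusted p = 0.00868 by edgeR, and 0.0508 without aged 4). Tifa, an adaptor upstream of NF-kB, had 10.7 ± 1.62 against 6.82 ± 2.57 CPM in exon 3 of 3 (0.76, edgeR adjusted p = 0.0224). In Tifa young 4, at 9.71 CPM, overlapped the aged range of 8.80 to 11.6 CPM, and edgeR's adjusted p lay between 0.0696 and 0.372 without aged 1, aged 2, young 1 or young 2.

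Peaks that were less open in aged libraries included the larger changes, as over all called peaks (median log2 fold changes of -1.51 lower and 1.29 higher). Cyp4f15, a cytochrome P450 of the fatty acid omega-hydroxylase family, had the smallest p of all exon peaks, in exon 13 of 13. It stood at 1.05, 1.13 and 1.31 CPM in aged and 16.7, 15.4 and 16.2 CPM in young libraries. Csf2ra, the alpha chain of the GM-CSF receptor, fell in exon 6 of 12 (chromosome 19, 61225763 to 61226705) from 25.8, 20.0 and 20.4 CPM in young to 5.67, 5.39 and 5.34 CPM in aged, a log2 fold change of -2.02 (SE 0.14, edgeR adjusted p = 2.21e-11). Abcc2, the apical transporter MRP2 that exports conjugated compounds, fell in exon 26 of 32 (chromosome 19, 43827757 to 43828078) from 5.22, 5.84 and 4.30 to 1.36, 1 and 0.738 CPM, a change of -2.35 (SE 0.25, edgeR adjusted p = 1.20e-07). In all 3 genes the ages did not overlap, which was a condition of their choice.

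Frem2, whose first-exon peak covers a RefSeq start, had 0.493, 0.919 and 1.19 CPM in aged and 8.70, 9.51 and 9.55 CPM in young libraries. E030044B06Rik, exon 3 of 3 (chromosome 19, 40873098 to 40873668), had 0.855 ± 0.0577 against 9.98 ± 1.31 CPM. Cilp2, a gene for a cartilage matrix protein, had 0.286 ± 0.0686 against 3.69 ± 0.495 CPM in exon 8 of 8, 13.2-fold lower in aged (chromosome 8, 69882023 to 69882656; log2 -3.72, SE 0.33). A single-exon transcript of Nbea, the neurobeachin gene, 1900 bp upstream of the Mab21l1 start, had 3 counts over the aged and 57 over the young libraries. After scaling the ratio was 22.7, with an exact 95% counting interval of 7.39 to 113. The fitted log2 fold change was -4.36, and ranged from -5.245 without aged 4 to -3.659 without aged 2.

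Pomc, the precursor of several peptide hormones, fell in exon 3 of 3 (chromosome 12, 3959816 to 3960378) from 11, 9.71 and 9.08 to 4.93, 3.55 and 3.07 CPM (log2 -1.40, SE 0.18, edgeR adjusted p = 4.26e-06). Snx20, a sorting nexin of leukocytes, fell in exon 4 of 4 (chromosome 8, 88627146 to 88627759) from 8.11 ± 0.592 to 2.39 ± 0.581 CPM (-1.75, edgeR adjusted p = 3.30e-07). Both were chosen after their values were seen.

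The next peaks lay in genes for transcription factors and, Zic1 and Sox3 excepted, were chosen after their values were seen. No list of such genes was counted or tested, and in the Hox list none of 7 tested peaks was called. Exon 1 of 3 of Zic1 had 0.247, 0.251 and 0.284 CPM in aged and 2.06, 1.04 and 1.75 CPM in young libraries (log2 -2.59, SE 0.42, edgeR adjusted p = 0.000214). Sox3, a single-exon gene, had 0.986, 0.961 and 0.909 against 4.07, 2.62 and 2.07 CPM (-1.69, SE 0.28). Evx2 in exon 2 of 3 had 0.695 ± 0.167 against 2.21 ± 0.218 CPM (-1.62, edgeR adjusted p = 0.00178). Those 3 were called in every alternative fit. Prdm13, Sp8, Tlx3 and Dmrta2 had -1.83, -1.73, -1.35 and -1.14, with young means of 1.64, 1.56, 1.77 and 2.22 CPM. Prdm13 was not called without young 1 (edgeR adjusted p = 0.125), and the other calls were each lost without several single libraries, to an edgeR adjusted p of at most 0.219. A further homeobox gene went the other way: exon 7 of 10 of Lhx6 had 15.9 ± 1.76 against 9.73 ± 1.59 CPM (0.66, edgeR adjusted p = 0.00638, and 0.051 without young 2).

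**Figure D4:**
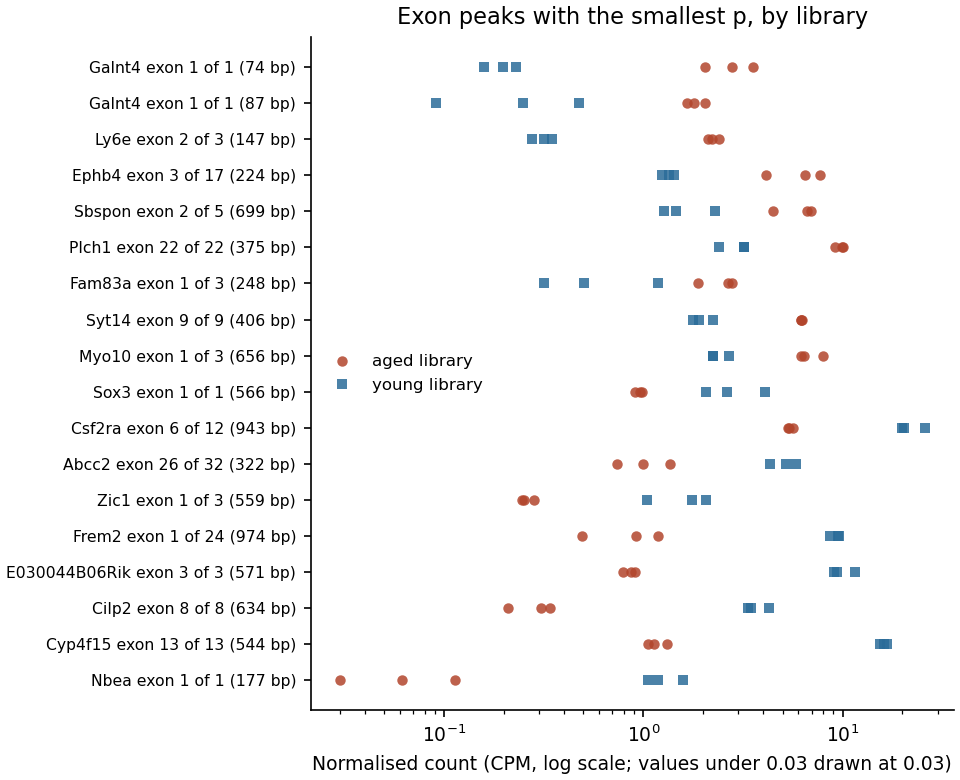
Normalised count in CPM (x axis, log scale) of the called exon peaks of smallest p per direction and class (y axis, gene, exon and peak width), with circles for aged and squares for young libraries. In each row the aged and young points are separate, which is a condition of the choice; the young points of Cyp4f15 lie between 15.4 and 16.7 and its aged points between 1.05 and 1.31, and the aged 2 library had no count at Nbea and is drawn at the left limit.

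Most called exon peaks whose gene start was tested had no call there. Of 139 called exon peaks, 12 had a RefSeq TSS within 1000 bp and were left out of this comparison. Of the others, 84 belonged to a gene with a tested peak within 1000 bp of its own TSS, and the strongest such peak was called in 4 (4.76%). Among 2857 exon peaks that were not called, picked in the same way, it was called in 26 (0.91%). For the 49 exon peaks that were higher, the start had the same sign in 33, with a median log2 fold change of 0.06, against 1.33 at the exon. For the 35 that were lower, the sign was the same in 14 (40.0%), with a median of 0.02, against -1.52. Among the exon peaks that were not called the sign was the same in 48.9%. Plch1, with 1.67 at the exon, had -0.13 (SE 0.13) at its start, at 18.4 against 19.7 CPM. Abcc2, with -2.35, had 0.13 (SE 0.12) at its start, at 31.4 against 28.7 CPM, and Cyp4f15 had -0.13 (SE 0.27). Galnt4 had 0.08 (SE 0.12) and Ephb4 -0.03 (SE 0.12). The peak used for Galnt4 covers the RefSeq start of another gene, Poc1b, so its value may not be that of the Galnt4 start. The start of Zic1 fell with its exon, with -2.53 (SE 0.40, edgeR adjusted p = 0.000122) at its start. The start of Best1 went the other way, with -0.67 (SE 0.18, edgeR adjusted p = 0.0456), as did that of Foxd2os, with 1.14 at the start and -1.41 at the exon. The start of 1700066B17Rik rose with its exon, with 1.08. The difference between the change at an exon and that at its start was not tested.

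**Figure D5:**
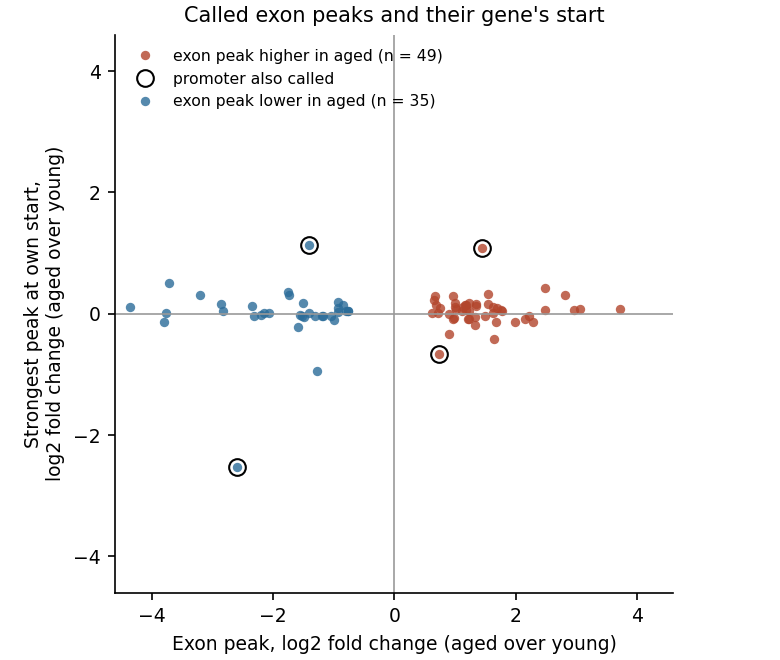
Log2 fold change, aged over young, of called exon peaks (x axis) against that of the strongest peak at the same gene's own start (y axis), for 49 higher (red) and 35 lower (blue) exon peaks, with rings where the start was called. Called exon peaks with a RefSeq TSS within 1000 bp or without a tested start are not drawn. The exon changes span both sides by choice, while the starts lie near 0, with medians of 0.06 and 0.02 and 4 rings.

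Peaks near a called exon peak tended to move the same way. Within 5000 bp of 101 of the 139 peaks lay other tested peaks, which gave 220 pairs of a called peak and a neighbour. In 163 of these (74.1%) both changed in the same direction. A neighbour of 2 called peaks is counted for each. Around all called peaks that share was 77.1%, and around called intron peaks 76.6%. A called neighbour with the same direction was present for 26 of the 139 (18.7%), against 20.9% for all called peaks. Neighbours can share fragments, and 7 genes had 2 called exon peaks, both in the same direction in each gene. Dusp16, a phosphatase of stress-activated MAP kinases, fell at both peaks of exon 7 of 7, by 1.05 and 1.18 on the log2 scale. Pgr, the progesterone receptor, fell by 1.73 and 1.31 in exon 1 of 8. Nckap5l (1.33 and 0.99), Pfas, an enzyme of purine synthesis (2.42 and 1.44), Plekhh1 (2.97 and 1.18), Rpgrip1, a protein of the photoreceptor cilium (0.84 and 1.19), and Galnt4 rose at both. The larger Plekhh1 change rests on 2, 2 and 1 counts in young libraries, so its size is uncertain.

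In 6 of these 7 genes, Galnt4 excepted, the call of at least 1 of the pair was lost when a single library was left out. Without young 2 edgeR's adjusted p was 0.175 for the narrower Dusp16 peak, 0.12 for the weaker Pgr peak, 0.261 for exon 3 of Nckap5l, 0.403 for exon 13 of Pfas, 0.0774 for exon 22 of Plekhh1, and 0.238 and 0.166 for the Rpgrip1 peaks. Without aged 4 it was 0.223, 0.108, 0.206, 0.0971 and 0.138 for the first 5, and 0.0916 for the wider Rpgrip1 peak. Leaving out aged 1, aged 2, young 1 or young 4 also ended some of these calls, with adjusted p up to 0.174.

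Of 15 gene lists, 6 contained a called exon peak and none held more than 1, where 3.01% of all tested exon peaks were called. Most lists held few tested peaks, so a single call or none says little about their genes. Of 122 exon peaks in 94 solute carrier genes, 102 were tested and 1 was called, lower, with a median log2 fold change of -0.06. That peak, exon 1 of 5 of the glucose transporter gene Slc2a12 (chromosome 10, 22645115 to 22645495), is 294 bp from a RefSeq start and had 0.616, 0.710 and 0.568 CPM in aged and 1.78, 2.53 and 1.11 CPM in young libraries. Its log2 fold change was -1.60 (SE 0.33, edgeR adjusted p = 0.00484, and 0.188 without young 2). Of 17 tested cytochrome P450 peaks Cyp4f15 was called, and the median was -0.07. Cyp4f14, next to it in the family, had -0.50 (SE 0.15, edgeR adjusted p = 0.112, and 0.0136 with the replicate block), at 8.16 ± 0.0476 against 11.9 ± 2.54 CPM. How reads that map to close gene copies were counted is not given in the sources used here, so values in such families are uncertain.

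Among 5 tested peaks of antigen presentation and interferon genes 1 was called. Exon 2 of 6 of H2-Ab1, the beta chain of an MHC class II molecule, stood at 3.64, 3.64 and 3.86 CPM in aged and 9.84, 10.2 and 14.0 CPM in young libraries (chromosome 17, 34264717 to 34265308; log2 -1.56, SE 0.17, edgeR adjusted p = 2.93e-07). Every aged library was below every young one. H2-Eb1, another class II beta chain, had -0.35 (SE 0.21, edgeR adjusted p = 0.714) in exon 2 of 6. Of 6 tested NF-kB and inflammation peaks none was called by edgeR. Tlr2, the receptor for bacterial lipoproteins, had 21.7, 16.4 and 24.4 CPM in aged and 15.8, 13.8 and 14.3 CPM in young in exon 3 of 3, a log2 fold change of 0.50 (SE 0.14). Its edgeR adjusted p was 0.0604, and 0.00189 with the replicate block. Nfkb2 had -0.32 (SE 0.14, edgeR adjusted p = 0.494).

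Of 5 tested peaks in leukocyte genes 1 was called, and 3 had a log2 fold change above 0 and 2 below. Exon 5 of 31 of Itgae, the CD103 integrin of intraepithelial lymphocytes, had 2.84, 2.92 and 3.18 CPM in aged and 1.05, 1.49 and 1.59 CPM in young libraries (log2 1.17, SE 0.26, edgeR adjusted p = 0.00874, and 0.116 without young 1). Exon 5 of 5 of Cd8a, a co-receptor of T cells, had 0.974 ± 0.485 against 0.356 ± 0.246 CPM (1.77, edgeR adjusted p = 0.0806, and 0.0496 with the replicate block). Snx20, which is outside that list, fell by 1.75 on the log2 scale. Also outside it, Prf1, a lymphocyte gene, and Mrc1, a macrophage gene, each rose in exon 2. Their log2 fold changes were 1.56 and 0.94 (edgeR adjusted p = 0.0316 and 0.0422), and neither call held in every alternative fit. These off-list peaks were chosen after their values were seen. The 9 leukocyte markers, Itgae among them, had no promoter peak in the table, so no level of theirs can be set beside these values, and the part of leukocytes in them was not tested.

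Pecam1, an adhesion molecule of endothelium and leukocytes, rose in exon 5 of 16 from 0.137, 0.396 and 0.478 to 1.42, 1.30 and 1.19 CPM (log2 2.12, SE 0.44, edgeR adjusted p = 0.00445, and 0.0849 without young 1). It was the single call among 4 tested peaks of stromal and endothelial genes. The summed promoter level of 7 stromal markers was 19.8 to 20.2 CPM in aged and 18.5 to 21.2 CPM in young libraries. Of 18 tested collagen and laminin peaks 1 was called, exon 19 of 33 of Lamb1, a laminin chain of basement membranes. It had 2.33 ± 0.694 against 1.05 ± 0.489 CPM (1.36, edgeR adjusted p = 0.0166), and young 4, at 1.59 CPM, overlapped aged 1, at 1.54 CPM. Without young 2, aged 2, aged 4 or young 1 its edgeR adjusted p was 0.268, 0.0889, 0.0756 and 0.054.

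In the other 9 lists none of the tested peaks was called. They covered enterocyte genes (2 tested), secretory and stem cell genes (16), NF-kB and inflammation (6), Zfp zinc fingers (38), Hox (7), keratins (10), replication-dependent histones (3), mucins and Ceacam (9) and chromatin modifiers (11). Hox peaks were below 0 in 6 of 7, with a median log2 fold change of -0.31, and mucin and Ceacam peaks above 0 in 8 of 9, with a median of 0.42. Over all tested exon peaks 48.0% were above 0. Both lists hold few peaks at low levels (medians of 1.19 and 0.915 CPM), and their signs were not tested. Hoxb7 exon 1 of 2, at 0.184 ± 0.1 against 0.677 ± 0.106 CPM, had -1.85 (SE 0.57, edgeR adjusted p = 0.119, and 0.0356 with the block). For Slc4a8 and Lama4, in 2 other lists, the block likewise moved edgeR's adjusted p, from 0.074 to 0.0277 and from 0.132 to 0.0401. In the differentiated enterocyte, exon 23 of 47 of Sis, sucrase-isomaltase, had 0.62 (SE 0.37), and exon 11 of 11 of Alpi, intestinal alkaline phosphatase, 0.05 (SE 0.15), at 9.05 ± 0.476 against 8.60 ± 1.16 CPM.

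At the highest count levels 2 exon peaks were called and both depended on the fit. Exon 26 of 32 of Sfi1 (chromosome 11, 3135202 to 3135842) had 159, 145 and 232 CPM in aged and 112, 108 and 112 CPM in young libraries, a log2 fold change of 0.69 (SE 0.13, edgeR adjusted p = 0.00179). Aged 4 stood highest, and without it edgeR's adjusted p was 0.0769. With total counts as the only scaling it was 0.111. Exon 21 of 21 of Lars2, the mitochondrial leucyl-tRNA synthetase (chromosome 9, 123461810 to 123462188), had 72.7, 60.4 and 50.5 CPM in aged and 111, 94.0 and 167 CPM in young, 2-fold lower in aged (log2 SE 0.18, edgeR adjusted p = 0.00741). With the replicate block its edgeR adjusted p was 0.491, and without young 1 it was 0.361. Young 4, the shallowest library, had the highest value, and the part of depth in it was not tested. The part of reads that map to several places is unknown for both the Sfi1 and the Lars2 peak.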

How the data were processed

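ATAC-seq gave 6 libraries of sorted small intestinal epithelium, recorded as 24 samples (4 lanes each) that share 1 column of counts per library. The authors deposited raw counts per consensus peak, made with featureCounts 2.0.1 per the submitters' processing notes, and an annotation table with each peak's position (GRCm38), annotation and distance to a TSS. The notes also name BWA 0.7.17-r1188 and MACS2 2.2.7.1. Not given in the sources used here are the peak calling settings, the counting of reads or fragments, a Tn5 shift and the release of the annotation.

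Counts of all 150646 peaks were fitted with edgeR 4.0.16 in R 4.3.3 (filterByExpr, TMM scaling, robust quasi-likelihood test, age as the only term), and p-values were adjusted by Benjamini-Hochberg over the 129588 tested peaks. CPM of single peaks are TMM-scaled, levels per kb and shares use total counts in peaks. Shares were tested by exact permutation over libraries (two-sided) and class levels by exact sign-flips, with Python 3.11.15 and scipy 1.17.1. On simulated counts of 126940 peaks the edgeR test recovered 23.9% of 1.5-fold, 59.7% of 2-fold and 86.4% of 4-fold changes. These were 16 of 67, 40 of 67 and 57 of 66 changed peaks, beside 12 false calls. The false share of the simulated calls was thus above the adjusted p threshold for a call.

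Same-numbered libraries of the 2 ages deviated together (r of 0.236, 0.182 and 0.123 for numbers 1, 2 and 4), above the criterion of 0.1, so values with the number as a block are given where they change a call or move a count by over 1.5 times. What a number stands for is not stated. Exon peaks were named by a rule: of the called peaks whose aged and young libraries did not overlap, the 6 with the smallest p in each direction and the 2 in each exon class and direction, the 2 with the highest CPM in each class, genes with 2 called peaks, up to 2 with the smallest p in each of 15 gene lists, and the 2 nearest the distance threshold on each side. The members and lists were chosen with earlier results of these data known. The result of a further list is not reported here. Alternatives were other scalings, DESeq2 1.42.0, no filter, the block, each library left out, a stricter threshold, other distances and other definitions of members. The exclusion of peaks near a RefSeq TSS was added after the data had been seen.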

Additional observations from a re-analysis of the deposited data

How the results depend on the processing

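DESeq2 gave 46 exon peaks higher and 41 lower, with 37 calls in inner and 34 in last exons, and kept 87 of the 139 calls. Over all peaks it called 0.996%. With the replicate number as a block there were 120 higher and 108 lower, with 100 calls in inner, 98 in last and 12 in single exons, and 138 of the 139 calls were kept. At an adjusted p under 0.01, 39 lower, 39 inner and 35 last exon peaks were called. Peaks whose nearest gene is protein-coding gave 46 higher. Over 3000 bp from the TSS 6 first and 0 single exon peaks were called by edgeR; this alternative only removes peaks. Leaving out single libraries gave 46 to 76 higher, 40 to 67 lower, 7 to 12 first, 37 to 64 inner, 36 to 61 last and 6 to 9 single exon calls. In these fits 0.916% to 1.54% of all peaks were called. The lowest counts but that of single exons came without young 2. The cause of the changed counts was not tested.

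The age difference in the share of counts (aged minus young, percentage points) had no stable sign when a library was left out: -0.0312 to 0.0288 for all exon peaks, -0.0317 to 0.024 for first, -0.00303 to 0.0282 for inner, -0.0263 to 0.00886 for last and -0.00234 to 0.00294 for single exons. With protein-coding nearest genes it was -0.0101 for all and -0.00088 for single exons.

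For class levels, the log2 ratio of first to inner exons was 1.58 per peak instead of per kb, 0.751 over 3000 bp and 0.504 without peaks near a RefSeq TSS. For single exons it was 0.191, 0.258 and 0.235, and for exons over introns 0.338, 0.110 and 0.0661. Last over inner exons gave 0.0897 per peak. All of these had an adjusted p under 0.05, which the main comparison missed. Exons over TTS peaks gave 0.178 per peak, 0.037 over 3000 bp, -0.078 without RefSeq starts and 0.000194 as a ratio of medians, so its sign depended on these choices. Leaving out libraries reversed no level ratio.

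Of 52 named peaks that were called, 30 were called in all 11 alternative fits and 22 lost the call at least once. Lars2 was the named call that the block ended. Of the named peaks that were not called, 8 changed sign. Their log2 fold changes without 1 library ranged from -0.024 to 0.094 for Aco1, -0.084 to 0.065 for Gcsh, -0.038 to 0.101 for Rap2b, -0.012 to 0.190 for Alpi, -0.180 to 0.018 for Hes7, -0.192 to 0.003 for Set, -0.152 to 0.042 for En2 and -0.134 to 0.325 for Htr6, which had -0.029 with the block. The dependence of the calls on depth was not tested; young 4 had a median of 13 counts per exon peak.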

Other observations

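The further exon peaks given here were chosen after their values were seen from the 67 called in all 11 alternative fits, and stand for no tested group. Lats2, a kinase of the Hippo pathway, was higher in aged libraries in exon 7 of 8, at 1.60, 1.55 and 1.82 CPM against 0.183, 0.495 and 0.318 CPM in young (log2 fold change 2.29, SE 0.40, edgeR adjusted p = 0.000547). Gins1, a subunit of the replicative helicase complex, was higher in exon 5 of 5, at 6.47, 8.52 and 8.12 CPM against 3.30, 1.98 and 2.71 CPM (1.54, SE 0.20, edgeR adjusted p = 7.31e-06). Eml2, a microtubule-binding protein, was higher in exon 16 of 19, at 31.1 ± 3.42 against 20.1 ± 4.15 CPM (SD, n = 3). Frmpd1, in exon 16 of 16, had 5.71 ± 0.803 against 1.54 ± 0.676 CPM.

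Among the peaks lower in aged libraries, Baiap2l2, which bends the plasma membrane of epithelial cells, had 0.185, 0.167 and 0.114 CPM in exon 7 of 7, against 1.46, 1.63 and 1.27 CPM in young (log2 -3.20, SE 0.45, edgeR adjusted p = 2.66e-05). The aged values are at or under the 3-count level, so the fitted size is uncertain. Epb4.1l5, a FERM-domain protein of the cell cortex, had 0.647 ± 0.134 against 3.16 ± 0.935 CPM in exon 2 of 17 (-2.18). Sdr16c5, a retinol dehydrogenase, had 2.16, 2.42 and 3.24 CPM in exon 1 of 7 against 5.08, 6.29 and 7.17 CPM (-1.21, SE 0.21, edgeR adjusted p = 0.000428). In each of these peaks the ages did not overlap.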
